A study of Homo sapiens with 4 samples.

Results

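The genes studied here encode 9 proteins of the AP-1 transcription factor family and its relatives: the FOS subfamily (FOS, FOSB, FOSL1, FOSL2), the JUN subfamily (JUN, JUNB, JUND), BATF3 and MAFF. They were taken by symbol from the 20263 gene rows of a count table. All 9 passed the filter on low counts and were among the 13816 genes tested. The cells were MDA-MB-231, a widely used human cell line from a triple-negative breast cancer, grown with serum and given YW-LF for 24 h (n = 2) or the solvent dimethyl sulfoxide (DMSO, n = 2), and RNA was sequenced from mRNA libraries. The series title describes YW-LF as derived from the CDK4/6 inhibitor ribociclib; its dose was not stated in the labels. All 4 libraries came from this 1 line, and nothing in the labels shows replicates to be separate cultures, so the spread behind each p-value is that between these libraries and may be technical.

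AP-1 factors bind DNA as dimers through a basic leucine zipper. JUN proteins pair with each other or with FOS proteins, whereas FOS proteins need a JUN partner, and the dimers bind the sequence TGACTCA and, with ATF partners, TGACGTCA. FOS, FOSB, JUN and JUNB are classic immediate early genes, induced within minutes by growth factors and stress through the ERK and JNK kinases, while FOSL1 (FRA1) is known as the main FOS protein of mesenchymal breast cancer lines such as this one.

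The libraries held 34774542 to 40218240 counts, so that 1 count was worth 0.0249 to 0.0288 CPM (counts relative to library size) before scaling. The mesenchymal marker vimentin (VIM) stood at 2122 to 4154 CPM, and the summed level of 5 mesenchymal markers was 8197 and 10186 CPM in DMSO and 4801 and 7679 CPM in YW-LF, where 4 of the 5 lay below both DMSO libraries. For this and the next count, 27.8% of all genes tested had both YW-LF libraries below both DMSO libraries. The summed level of 6 luminal or epithelial markers was 26.7 and 39.9 CPM in DMSO and 16.5 and 12.1 CPM in YW-LF, with 3 of the 6 below both DMSO libraries. Among these, the luminal factor GATA3 was at 9.03 and 21.4 CPM in DMSO and at 3.08 and 4.01 CPM in YW-LF, the adhesion protein gene EPCAM at 5.53 to 9.35 CPM, FOXA1 at 0.65 to 7.17 CPM, the epithelial cadherin CDH1 at 0 to 0.26 CPM and the estrogen receptor ESR1 at 0.13 to 0.66 CPM. The summed levels of 4 leukocyte markers and of 4 fibroblast markers were 0.097 to 1.07 CPM and 0.30 to 0.91 CPM per library, and CD3E and DCN among them had 0 counts in every library. The part of these markers in the results was not tested. Pearson's r between replicates, in log2 CPM across 13816 genes, which are not independent replicates, was 0.976 in DMSO and 0.907 in YW-LF. YW-LF replicate 2 stood farthest from DMSO (0.865 and 0.859). YW-LF replicate 1 correlated more with DMSO replicates 1 and 2 (0.922 and 0.911) than with YW-LF replicate 2. The share of counts on mitochondrially encoded genes was 8.68% and 21.7% in the DMSO libraries and 3.14% and 6.58% in the YW-LF libraries.

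Reference promoter windows from RefSeq (build GRCh38.p14, from 250 bases before to 50 bases after the annotated start of transcription) were found for 7 of the 9 genes; FOSL1 and BATF3 had no entry. They are shown because AP-1 genes are known to carry sites for AP-1 and ATF dimers in their own promoters. A link between such sites and the levels in YW-LF was not tested. The windows were searched on both strands for TGACTCA, for TGACGTCA, for TGACATCA (the variant known from the JUN promoter) and for the CArG box, which serum response factor binds. The 4 windows with a match are given below, 5′ to 3′ on the gene's strand, with the match in capitals, and no match overlapped another.
JUN, chr1:58783998-58784297, minus strand: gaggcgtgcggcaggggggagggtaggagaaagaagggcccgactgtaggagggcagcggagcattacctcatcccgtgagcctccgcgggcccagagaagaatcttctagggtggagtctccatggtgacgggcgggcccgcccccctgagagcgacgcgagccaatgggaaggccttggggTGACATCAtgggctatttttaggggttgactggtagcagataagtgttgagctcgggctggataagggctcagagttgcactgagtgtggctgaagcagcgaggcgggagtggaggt
JUND, chr19:18281573-18281872, minus strand: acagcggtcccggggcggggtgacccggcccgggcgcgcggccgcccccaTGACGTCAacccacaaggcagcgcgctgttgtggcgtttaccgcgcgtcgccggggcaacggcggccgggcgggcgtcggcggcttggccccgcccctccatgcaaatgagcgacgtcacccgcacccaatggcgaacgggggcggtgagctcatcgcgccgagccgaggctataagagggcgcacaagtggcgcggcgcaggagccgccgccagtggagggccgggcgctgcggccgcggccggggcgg
MAFF, chr22:38201744-38202043, plus strand: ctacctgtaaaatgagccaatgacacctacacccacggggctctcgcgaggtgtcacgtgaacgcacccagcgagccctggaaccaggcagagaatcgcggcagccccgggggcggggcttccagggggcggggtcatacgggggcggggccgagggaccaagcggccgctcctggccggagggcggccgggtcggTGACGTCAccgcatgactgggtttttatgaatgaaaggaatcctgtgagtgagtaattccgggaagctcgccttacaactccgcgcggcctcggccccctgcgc
FOSL2, chr2:28392608-28392907, plus strand: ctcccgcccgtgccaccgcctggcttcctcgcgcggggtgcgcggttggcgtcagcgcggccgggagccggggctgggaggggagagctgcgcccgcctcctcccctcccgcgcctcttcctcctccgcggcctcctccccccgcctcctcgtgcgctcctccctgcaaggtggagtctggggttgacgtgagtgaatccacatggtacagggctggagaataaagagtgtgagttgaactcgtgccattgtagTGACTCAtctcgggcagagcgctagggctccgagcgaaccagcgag
In JUN the first base of TGACATCA lay 67 bases before the start, in JUND and MAFF that of TGACGTCA lay 200 and 54 bases before it, and in FOSL2 TGACTCA began at base 5 of the transcript. These starts are those of RefSeq. The JUN, FOSL2 and MAFF windows lie wholly inside the GENCODE gene positions given below. For JUN, annotated with 1 exon, the 2 annotations therefore place the start differently. For FOSL2 and MAFF the starts of individual transcripts were not compared. Among 35116 such windows of all genes, 4.95% held TGACTCA, 1.85% TGACGTCA, 2.61% TGACATCA and 1.29% a CArG box. The share of windows with any of these motifs was not computed. The windows of FOS, FOSB and JUNB and a second window of MAFF held none of these letters, which says nothing about sites outside the windows.

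Of the 9 genes, 6 (FOS, FOSB, JUN, JUNB, JUND and MAFF) stood higher in both YW-LF libraries than in both DMSO libraries, BATF3 stood lower in both, and the ranges of FOSL1 and FOSL2 overlapped. Over all genes tested, 28% had both YW-LF libraries above both DMSO libraries and 27.8% had both below. No member passed the quasi-likelihood test of edgeR after Benjamini-Hochberg adjustment at 0.05, in which 0% of genes were called higher and 0% lower, and limma-voom called 0 members as well. At an unadjusted p under 0.05 in edgeR, 6 members were higher and 0 lower, beside 11.5% and 9.01% of all genes. DESeq2, with its own estimate of the spread, called the same 6 members higher and 0 lower, beside 5.95% and 4.41% of the genes with an adjusted p. In edgeR fits that left out 1 treated library, omitting replicate 1 gave 6 members higher and 0 lower, beside 21% and 20.7% of genes, and omitting replicate 2 gave 5 members higher and 1 lower, beside 10.1% and 10.2% of genes. The median log2 fold change of the 9 genes, which were chosen with earlier results of these data known, was 2.09, against 0.06 over all genes tested. Leaving out YW-LF replicate 2 or YW-LF replicate 1 gave a median of 1.15 or 2.60. With 2 libraries per group an exact two-sided permutation test of 1 gene cannot go below p = 0.333.

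**Figure D1:**
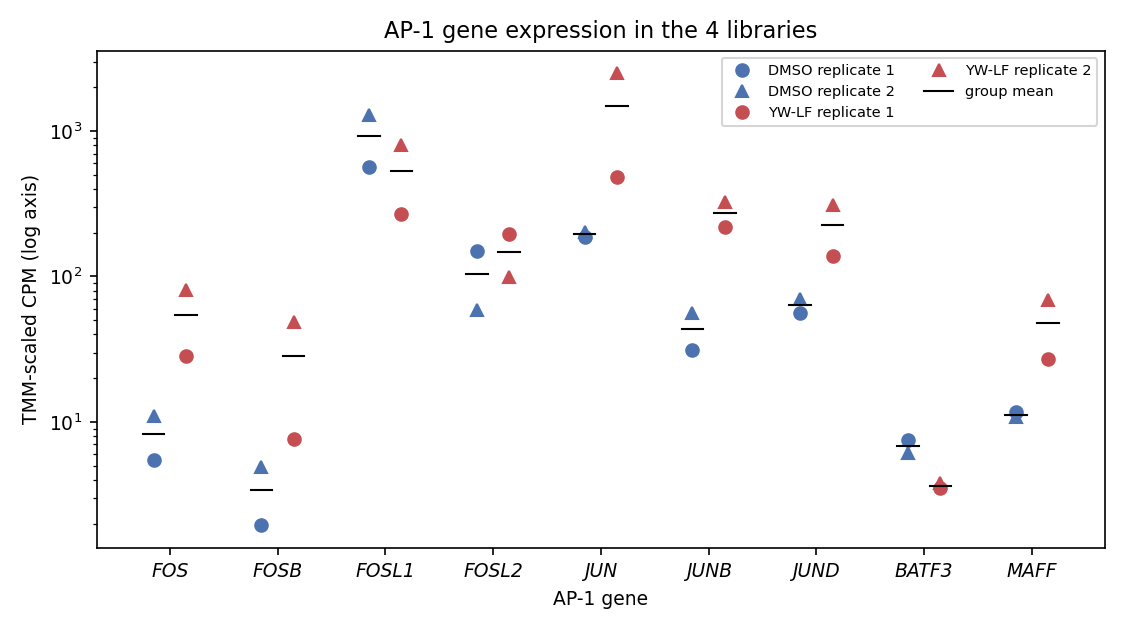
TMM-scaled CPM (log axis) of the 9 AP-1 genes in the 4 libraries, with DMSO in blue, YW-LF in red, circles for replicate 1, triangles for replicate 2 and black bars for group means. Both red symbols lie above both blue ones for FOS, FOSB, JUN, JUNB, JUND and MAFF and below them for BATF3, while FOSL1 and FOSL2 overlap.

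JUN, the founding AP-1 subunit and a substrate of JNK (ENSG00000177606, GRCh38 chromosome 1, 58780788 to 58784327, annotated with 1 exon), was at 188 and 203 CPM in DMSO replicates 1 and 2 and at 480 and 2492 CPM in the YW-LF replicates. The DMSO libraries lay close together, and the YW-LF libraries were both higher but differed 5.19-fold from each other. The log2 fold change was 2.93 (SE 0.84), a 7.60-fold higher mean level, with adjusted p = 0.148 in edgeR and 3.2e-04 in DESeq2. Without YW-LF replicate 2 the log2 fold change was 1.28, and without YW-LF replicate 1 it was 3.67.

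JUNB, which is known to act more weakly than JUN in many promoters and can restrain it (ENSG00000171223, chromosome 19, 12791496 to 12793315), was at 31.4 and 55.8 CPM in DMSO and at 220.1 and 323 CPM in YW-LF. It had the widest gap between the groups of the 9 genes, since its lower YW-LF value was 3.95 times its higher DMSO value. Its log2 fold change was 2.64 (SE 0.48), with adjusted p = 0.121 in edgeR and 2.0e-05 in DESeq2, and its rank by p among all genes in edgeR was 107. In edgeR the value was 2.33 without YW-LF replicate 2 (adjusted p = 0.0092) and 2.89 without YW-LF replicate 1 (adjusted p = 6.8e-04). Exons of HOOK2, on the opposite strand, overlap those of JUNB, and the labels do not say whether reads were counted by strand. HOOK2 itself had 345 to 919 counts per library against 1174 to 11060 for JUNB, and its log2 fold change was 0.26 (SE 0.44).

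JUND, a JUN subunit known for steady expression in resting cells (ENSG00000130522, chromosome 19, 18279760 to 18281622), was at 56.5 and 70.0 CPM in DMSO and at 138 and 312 CPM in YW-LF. The groups did not overlap, and the lower YW-LF library was 1.97 times the higher DMSO library. Its log2 fold change was 1.83 (SE 0.50), the smallest of the 6 higher genes, with adjusted p = 0.140 in edgeR and 0.0096 in DESeq2. In edgeR the value was 1.11 without YW-LF replicate 2 (adjusted p = 0.028) and 2.30 without YW-LF replicate 1 (adjusted p = 6.0e-04).

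FOS, the immediate early partner of JUN (ENSG00000170345, chromosome 14, 75278774 to 75282230), was at 5.47 and 10.9 CPM in DMSO and at 28.2 and 81.1 CPM in YW-LF. Both treated libraries were higher, with a 2.58-fold gap between the nearest libraries of the groups. The log2 fold change was 2.74 (SE 0.64), with adjusted p = 0.122 in edgeR and 3.8e-04 in DESeq2, and in edgeR it was 1.77 without YW-LF replicate 2 (adjusted p = 0.024) and 3.30 without YW-LF replicate 1 (adjusted p = 6.0e-04).

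FOSB, a FOS relative whose splice form deltaFosB is known for its stability (ENSG00000125740, chromosome 19, 45467995 to 45475179), was the least abundant FOS gene, with 73 and 163 counts in DMSO and 382 and 1510 counts in YW-LF. In CPM it was at 1.95 and 4.87 in DMSO and at 7.60 and 48.9 in YW-LF, so YW-LF replicate 1 stood only 1.56 times above the nearest DMSO library while replicate 2 stood far above both. The log2 fold change of 3.05 (SE 0.94; adjusted p = 0.164 in edgeR, 0.0018 in DESeq2) was 1.15 without YW-LF replicate 2 (edgeR adjusted p = 0.156) and 3.84 without YW-LF replicate 1 (edgeR adjusted p = 6.4e-04).

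FOSL1, which encodes FRA1 (ENSG00000175592, chromosome 11, 65892049 to 65900573), had the highest level per exon length of the 9 genes in DMSO, and was at 562 and 1291 CPM there and at 270.2 and 796 CPM in YW-LF. YW-LF replicate 1 was the lowest library, but YW-LF replicate 2 lay above DMSO replicate 1, so the groups overlapped. Its log2 fold change was -0.80 (SE 0.70; adjusted p = 0.55 in edgeR, 0.47 in DESeq2). In edgeR it was -1.79 without YW-LF replicate 2, -0.22 without YW-LF replicate 1, and -0.09 when DMSO replicate 2 was left out.

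FOSL2, which encodes FRA2 (ENSG00000075426, chromosome 2, 28392448 to 28417312), was at 150.3 and 58.6 CPM in DMSO and at 196.8 and 98.8 CPM in YW-LF. Replicate 1 was higher than replicate 2 in both groups, opposite to FOSL1, where replicate 2 was higher in both, and the groups overlapped. The log2 fold change was 0.50 (SE 0.58; adjusted p = 0.65 in edgeR, 0.66 in DESeq2), and its sign turned when either DMSO replicate 2 (-0.04) or YW-LF replicate 1 (-0.09) was left out.

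MAFF, a small MAF protein that has no activation domain of its own and pairs with BACH and NRF proteins (ENSG00000185022, chromosome 22, 38200767 to 38216511), was at 11.7 and 10.8 CPM in DMSO and at 26.9 and 68.6 CPM in YW-LF. The DMSO libraries were nearly equal and both YW-LF libraries were higher. For MAFF the log2 fold change was 2.09 (SE 0.53), with adjusted p = 0.130 in edgeR and 0.0048 in DESeq2, and in edgeR it was 1.25 without YW-LF replicate 2 (adjusted p = 0.020) and 2.60 without YW-LF replicate 1 (adjusted p = 3.6e-04).

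BATF3, a factor best known for the development of cross-presenting dendritic cells, which pairs with JUN proteins (ENSG00000123685, chromosome 1, 212686418 to 212699985), was the 1 member lower in both treated libraries. It was at 7.53 and 6.13 CPM in DMSO and at 3.50 and 3.79 CPM in YW-LF, from 117 to 282 counts per library. Replicates agreed better than for any other member in YW-LF, within 1.08-fold, and the log2 fold change was -0.91 (SE 0.52; adjusted p = 0.36 in edgeR and 0.36 in DESeq2). In the fits that left out 1 library, the log2 fold change of BATF3 ranged from -1.06 to -0.74.

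**Figure D2:**
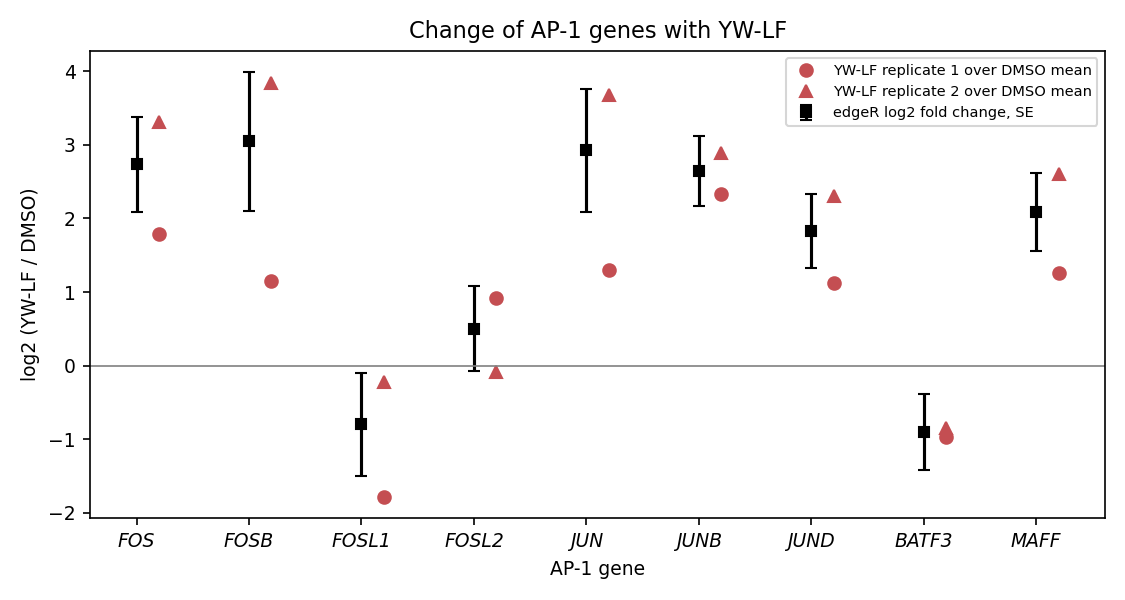
Log2 ratio of YW-LF to DMSO for each AP-1 gene, with the edgeR log2 fold change and its SE in black and each YW-LF library against the DMSO mean in red. YW-LF replicate 2 lies above replicate 1 for the 6 higher genes (JUN: 3.67 against 1.30), while for FOSL2 the libraries lie on opposite sides of 0.

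In TMM-scaled CPM, YW-LF replicate 2 carried the larger ratio to the DMSO mean for each of the 6 higher genes. On the log2 scale this ratio ran from 2.30 for JUND to 3.84 for FOSB. In YW-LF replicate 1 it ran from 1.12 for JUND to 2.34 for JUNB. For JUNB the order depended on the scaling, since CPM by library size alone were 275 and 270 in YW-LF replicates 1 and 2. Removing the 13 mitochondrially encoded genes before scaling, an alternative chosen after seeing the data, left the JUN log2 fold change at 2.93 and that of JUNB at 2.64. Because these are bulk libraries, a change in the number of cells that express a gene and a change of RNA per cell cannot be told apart.

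Levels were compared between genes only after division by the length of annotated exons (CPM per kilobase). In DMSO the order was FOSL1 (491 ± 273, mean ± SD, n = 2), JUN (55.2 ± 3.14), JUND (33.9 ± 5.11), JUNB (23.9 ± 9.49), FOSL2 (14.6 ± 9.06), FOS (2.53 ± 1.19), BATF3 (2.52 ± 0.37), MAFF (2.002 ± 0.12) and FOSB (0.61 ± 0.37). FOSL1 and JUN each stood clear of the gene after them, whereas JUND overlapped with JUNB between libraries, JUNB with FOSL2, and FOS with both BATF3 and MAFF. The order of BATF3 and MAFF depends on the length used and is not resolved. Annotated exons cover 2713 bases for BATF3 and 5615 for MAFF, but their longest transcripts have 2357 and 3284. In YW-LF the order was JUN (419.7 ± 402), FOSL1 (282 ± 197), JUNB (149 ± 39.9), JUND (121 ± 66.0), FOSL2 (20.7 ± 9.68), FOS (16.9 ± 11.6), MAFF (8.50 ± 5.25), FOSB (5.08 ± 5.26) and BATF3 (1.34 ± 0.07). There JUN, FOSL1, JUNB and JUND all overlapped, as did FOSL2 with FOS, FOS with MAFF, MAFF with FOSB, and FOSB with BATF3, so that the order within these sets is not resolved by 2 libraries.

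The make-up of the FOS subfamily differed between the groups at its minor members. FOS took 0.53% and 0.48% of the subfamily's CPM per kilobase in DMSO and 4.82% and 5.34% in YW-LF, and FOSB 0.11% and 0.13% against 0.76% and 1.88%. FOSL1 still held most of it in every library, with 92.8% and 98.2% in DMSO and 79.2% and 89.8% in YW-LF, and the FOSL1 groups did not overlap on this scale although they overlapped in CPM. FOSL2 ranged widely, at 6.55% and 1.18% in DMSO and 15.2% and 2.94% in YW-LF.

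Within the JUN subfamily the share of JUND was 30.2% and 29.9% in DMSO and 22.4% and 16.0% in YW-LF. JUN held 52.7% and 45.7% in DMSO and 41.0% and 67.1% in YW-LF, and JUNB 17.1% and 24.4% against 36.6% and 16.9%, so JUN had its highest share in YW-LF replicate 2 and JUNB in YW-LF replicate 1. The summed level of the JUN subfamily was 101 and 126 CPM per kilobase in DMSO and 330.4 and 1049 in YW-LF. That of the FOS subfamily was 321 and 697 in DMSO and 181 and 469 in YW-LF, which overlap.

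**Figure D3:**
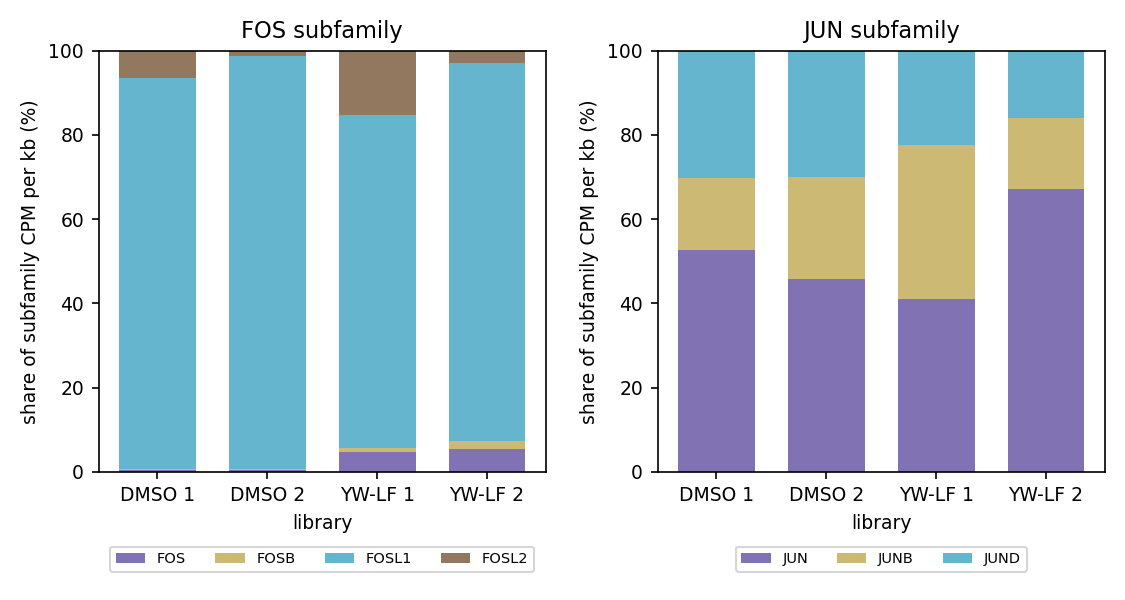
Share (%) of each gene in the CPM per kilobase of its subfamily, for the FOS subfamily at left and the JUN subfamily at right, 1 bar per library. FOSL1 fills 79.2% to 98.2% of the FOS bars, FOS reaches 4.82% and 5.34% only in the YW-LF bars, and the JUND segment is shorter in both YW-LF bars.

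Ratios between genes of the same library do not depend on how libraries are scaled. Of 5 ratios computed, the number of JUN counts per FOSL1 count, each per kilobase, was 0.178 and 0.084 in DMSO and 0.946 and 1.67 in YW-LF. The corresponding FOS to FOSL1 ratio was 0.0057 and 0.0049 in DMSO and 0.061 and 0.059 in YW-LF, an 11.3-fold difference of the means. Replicates agreed within 1.15-fold in DMSO and 1.03-fold in YW-LF for this ratio, although FOS alone varied by factors of 1.998 and 2.87 between the same libraries and FOSL1 by 2.30 and 2.94. The JUNB to FOSL1 ratio was 0.058 and 0.045 in DMSO and 0.844 and 0.421 in YW-LF. The FOSL2 to FOSL1 ratio overlapped between the groups (0.071 and 0.012 against 0.192 and 0.033). The JUN to JUND ratio was 1.75 and 1.53 in DMSO and 1.83 and 4.21 in YW-LF, the last in replicate 2.

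For this and the following gene lists, the shares of all genes to set beside the counts are 28% above and 27.8% below the DMSO range, 11.5% higher and 9.01% lower at an unadjusted p under 0.05 in edgeR, and 5.95% higher and 4.41% lower in DESeq2. The first list held 10 other basic leucine zipper genes, namely ATF, BATF and CREB members and JDP2. They were listed as possible partners of FOS and JUN, and pairing was not tested. Of the 10 genes, 3 lay above both DMSO libraries in each treated library and 2 lay below them, close to the shares of all genes. None of the 10 passed edgeR's test (3 higher and 0 lower at an unadjusted p under 0.05), and DESeq2 called 2 higher and 0 lower. Their median log2 fold change was 0.14, and leaving out 1 library moved it to -0.05 (DMSO replicate 2), 0.01 (YW-LF replicate 1), 0.32 (YW-LF replicate 2) and 0.40 (DMSO replicate 1). ATF3, a stress-induced partner of JUN, was at 7.37 and 14.3 CPM in DMSO and at 56.2 and 169 CPM in YW-LF (3.38 on the log2 scale, SE 0.66; adjusted p = 0.121 in edgeR, 3.7e-06 in DESeq2). CREB5, a relative of ATF2, was at 30.5 and 38.4 CPM in DMSO and at 73.7 and 555 CPM in YW-LF (3.19, SE 0.91), and YW-LF replicate 2 stood far above the other libraries. CREM, a cAMP-responsive factor, had a log2 fold change of 1.22 (SE 0.40). JDP2, a repressor that binds JUN proteins, was at 11.6 and 13.3 CPM in DMSO and at 9.59 and 3.66 CPM in YW-LF (-0.90, SE 0.57).

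Among 8 genes that pair with MAFF or share its partners, 4 lay above the DMSO range with YW-LF, against 28% of all genes, and 2 below it, against 27.8%, with a median log2 fold change of 0.77. In edgeR 0 passed (4 higher and 1 lower at an unadjusted p under 0.05), and in DESeq2 3 were higher and 0 lower. The other small MAF genes resembled MAFF in direction: MAFK was at 32.3 and 29.6 CPM in DMSO and at 173 and 410 CPM in YW-LF (3.24 on the log2 scale, SE 0.54), and MAFG had a log2 fold change of 2.07 (SE 0.55). BACH1, a repressor that binds DNA with a small MAF protein, was at 54.7 and 43.1 CPM in DMSO and at 175 and 330.5 CPM in YW-LF (2.37, SE 0.46). Adjusted p-values of MAFK, MAFG and BACH1 were 0.121, 0.138 and 0.121 in edgeR and 2.9e-07, 0.0036 and 1.6e-04 in DESeq2.

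Kinases and factors upstream of AP-1 genes were measured with 20 genes. Of these, 2 lay above the DMSO range with YW-LF, against 28% of all genes, and 8 below it, against 27.8%. Their median log2 fold change was -0.34 (-0.21 when DMSO replicate 2 was left out). In edgeR 0 passed (1 higher and 2 lower at an unadjusted p under 0.05), and in DESeq2 0 were higher and 1 lower. MRTFB, a coactivator of serum response factor, was at 24.0 and 39.4 CPM in DMSO and at 8.18 and 5.53 CPM in YW-LF (-2.21, SE 0.46; adjusted p = 0.121 in edgeR, 0.0011 in DESeq2). SRF itself had a log2 fold change of 0.06 (SE 0.40), and MAPK8, the JNK1 kinase gene, of 0.26 (SE 0.36). MAPK9, the JNK2 gene, was at 73.4 and 77.2 CPM in DMSO and at 35.7 and 43.6 CPM in YW-LF (-0.93, SE 0.35), and MAP2K4, which phosphorylates JNK, had a log2 fold change of 1.12 (SE 0.43).

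Genes that control the decay of AP-1 transcripts or proteins had a median log2 fold change of -0.22, with 2 of 10 above the DMSO range, against 28% of all genes, and 4 below it, against 27.8%. That median was nearer to 0 when YW-LF replicate 1 (-0.03), YW-LF replicate 2 (-0.05) or DMSO replicate 2 (-0.06) was left out. In edgeR 0 passed (1 higher and 1 lower at an unadjusted p under 0.05), as in DESeq2. ZFP36, which promotes decay of AU-rich transcripts such as that of FOS, was at 7.85 and 14.4 CPM in DMSO and at 14.2 and 13.8 CPM in YW-LF (0.33, SE 0.46), and the groups overlapped. HNRNPD, which encodes the RNA-binding protein AUF1, had a log2 fold change of -1.36 (SE 0.55). FBXW7 and ITCH, ubiquitin ligase genes whose products can target JUN proteins, had log2 fold changes of 0.89 (SE 0.36) and 1.06 (SE 0.47).

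Of 21 genes known as AP-1 targets, 16 were tested, 6 lay above the DMSO range with YW-LF, against 28% of all genes, and 2 below it, against 27.8%. Their median log2 fold change was 0.66 (1.39 when DMSO replicate 2 and 0.40 when YW-LF replicate 1 was left out). None passed in edgeR (2 higher and 1 lower at an unadjusted p under 0.05), while DESeq2 called 3 higher and 1 lower. CXCL8, the chemokine interleukin 8, was at 6.33 and 12.8 CPM in DMSO and at 58.6 and 321 CPM in YW-LF (4.32, SE 0.89), and IL6, an inflammatory cytokine, at 1.84 and 4.90 CPM against 16.1 and 38.0 CPM (3.0, SE 0.68). MMP1, the interstitial collagenase, was at 3.18 and 5.11 CPM in DMSO and at 42.7 and 3.69 CPM in YW-LF. Only YW-LF replicate 1 was high and the groups overlapped, yet MMP1 was among the 3 genes that DESeq2 called higher (adjusted p = 0.029). CCND1, cyclin D1, lay lower in both treated libraries, at 798 and 959 CPM in DMSO and 328 and 312 CPM in YW-LF (-1.46, SE 0.45; adjusted p = 0.164 in edgeR, 0.018 in DESeq2). The 5 genes that were not tested included CCL2 and IVL, with 0 counts in every library.

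**Figure D4:**
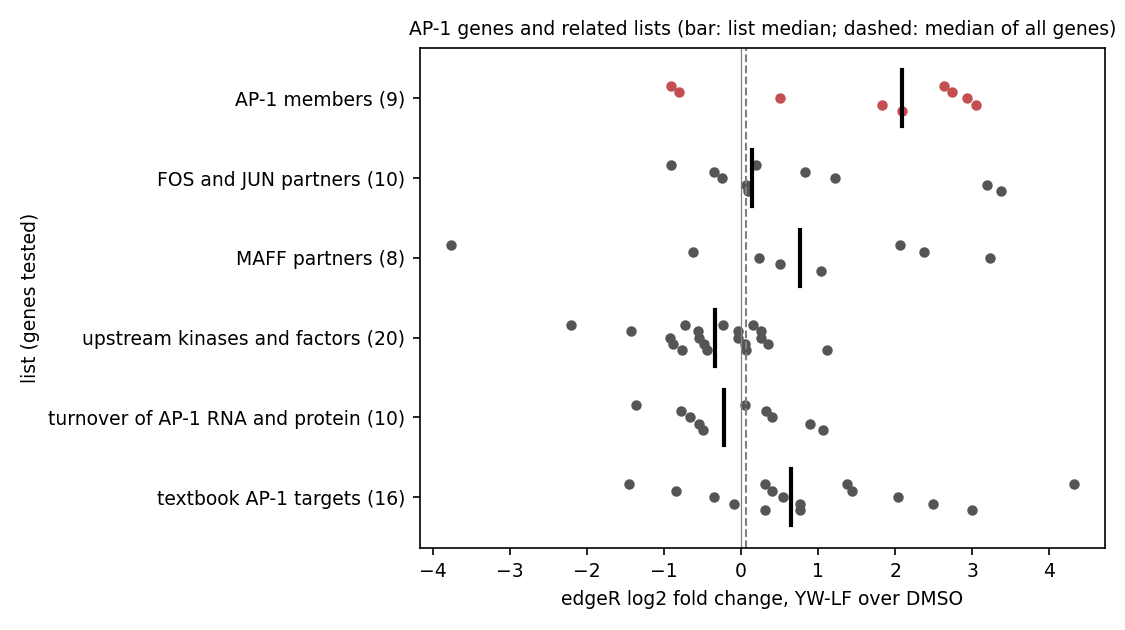
EdgeR log2 fold change of YW-LF over DMSO for the tested genes of each list, 1 point per gene, with the list median as a black bar and the median of all genes (0.06) as a dashed line. The 9 AP-1 genes have a median of 2.09, and the medians of the other lists lie between -0.34 and 0.77. Members and lists were chosen with earlier results known.

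The genes whose pattern over the 4 libraries was most like that of a member were found among 10809 genes with a mean of at least 5 CPM, by Euclidean distance of gene-centred log2 CPM. For FOS they were H2BC4, a histone H2B gene of a family with near-identical copies and so uncertain (distance 0.28), RELB, an NF-kB subunit (0.41), and KLF6, a zinc finger factor (0.42). For JUN they were ZNF408 (0.11), ZNF554 (0.22) and IFI27L2 (0.25). ZNF408, a zinc finger gene, was at 10.1 and 11.95 CPM in DMSO and at 25.8 and 142.5 CPM in YW-LF, so that it shared with JUN both the even DMSO level and the gap between the YW-LF libraries. For FOSL1 they were POLDIP3 (0.24), MPDU1 (0.26) and PHLDA2 (0.31), and PHLDA2 was at 223 and 575 CPM in DMSO and 89.1 and 306 CPM in YW-LF. With 4 libraries many genes can share such a pattern, and the distances are descriptions without a test.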

How the data were processed

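Values per gene in the authors' table are raw counts: whole numbers with unequal library totals. No source used here names the aligner, the counting program or the annotation. Although the submitters' processing notes list GRCm38 and mm10, which are mouse genomes, each of the 20263 rows carries a human Ensembl identifier. A second deposited table repeated the DMSO counts (40526 of 40526 values identical), and 2 columns without a matching label were left unused. Symbols came from a reference table (20148 rows matched), and lengths and positions from GENCODE 29 on GRCh38.

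The test was edgeR 4.0.16 in R 4.3.3: filterByExpr, trimmed mean of M-values (TMM) scaling and a quasi-likelihood F-test over all 4 libraries without covariates, with Benjamini-Hochberg adjustment over all genes (lowest adjusted p = 0.117). The SE is the log2 fold change divided by the square root of F. CPM values are TMM-scaled, and log2 CPM used a prior count of 2. DESeq2 1.42.0, limma-voom (limma 3.58.1), other scalings and count filters, the replicate number as a covariate and leaving out each library were alternatives. Only the default edgeR, limma-voom and DESeq2 fits were tried on simulated counts, whose means came from these data. That check covered the sign and median size of the fold change, not the calls. Members and lists were chosen with earlier results of these data known. Named genes were the 9 members, the 3 genes of lowest p in each of 5 lists with 7 genes added whatever their values (ATF3, JDP2, SRF, MAPK8, ZFP36, MMP1 and CCND1), and the 3 genes most like FOS, JUN and FOSL1.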

Additional observations from a re-analysis of the deposited data

How the results depend on the processing

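The log2 fold changes of FOS, FOSB, JUN, JUNB, JUND and MAFF stayed positive, and those of FOSL1 and BATF3 negative, in all 13 alternatives. Leaving out 1 library moved that of FOSL2 over a range of -0.0856 to 1.35, and its sign turned when DMSO replicate 2 (-0.0377) or YW-LF replicate 1 was left out. DESeq2 called 841 genes higher and 623 lower, 6 of them members, all higher. Without a count filter beyond a total of 1, edgeR called 155 higher (0.927%) and 120 lower (0.718%), among them 1 member, JUNB. With the replicate block it called 186 (1.35%) and 145 (1.05%), with 3 members higher (FOS, FOSB and JUNB). The labels tie replicate numbers to no batch. Same-numbered libraries hardly deviated together across genes (r = 0.037), which cannot exclude a pairing. Replicate 2 had the higher mitochondrial share in both DMSO (21.7% against 8.68%) and YW-LF (6.58% against 3.14%). It also had the lower TMM factor in both DMSO (0.886 against 1.08) and YW-LF (0.838 against 1.25). Whether replicates were paired is not known, and the block is given only as an alternative. With 1 library left out, and the spread then set by the remaining pair, 46 to 2963 genes were higher and 16 to 2919 lower, members called higher ranged from 0 to 6 and lower from 0 to 1, members above DMSO without overlap from 6 to 7 (33.9% to 44.3% of all genes) and members below it from 1 to 2 (33.2% to 45.3% of all genes), and the median log2 fold change of the 9 members, a range added after seeing the data, from 1.15 to 2.60. The median of the genes listed as possible FOS and JUN partners was 0.243 with library size as the only scaling and -0.0493 to 0.403 leaving out 1 library. That of the MAFF partners was 1.04 with at least 10 counts in all samples and 0.800 to 1.02 leaving out 1 library, and that of the AP-1 targets 0.397 to 1.39 leaving out 1 library, as those of the upstream genes (-0.406 to -0.210) and of the turnover genes (-0.179 to -0.0283). With the longest transcript as gene length, FOS took 0.672% of its subfamily in DMSO and 6.64% in YW-LF, and FOSB 0.153% in DMSO. Other scalings, the stricter filter, limma-voom and removal of mitochondrially encoded genes called 0 genes. Counting error is largest for FOSB and BATF3, with 73 and 117 counts in their lowest libraries.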
